A study of Mus musculus with 12 samples.

Results

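The LPS response of macrophages that lack cGAS was measured in 6 of the 12 samples of the series, 3 samples of bone marrow-derived macrophages (BMDMs) from cGAS-/- mice given lipopolysaccharide (LPS) and 3 samples given media control (UT). The samples were taken by the names of their columns, and every gene at 1 TPM or more in at least 3 of these 6 samples was tested (TPM is a read share scaled by transcript length), which gave 8703 of the 38739 gene symbols in the table. Both groups carried the same germline deletion of Cgas on a C57BL/6J background, so the loss of cGAS was shared and only LPS differed. The mice were male and 8 weeks old, and neither the number of animals or cultures behind the samples nor a pooling of animals was stated. The LPS came from E. coli 026:B6 in both sources, but the sample labels gave 100 ng/mL for 1 h whereas the methods of the study gave 150 ng/mL for 24 h, and the values below are therefore given without a dose or a time. The study called its 3 samples per group technical replicates, so the p-values measure only the spread between these samples. The other 6 samples were wild-type (WT) BMDMs with and without LPS, and they enter only where the size of a response is set beside that of WT.

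LPS is the outer membrane glycolipid of Gram-negative bacteria and is sensed by TLR4 with its partners CD14 and MD-2. TLR4 signals through the adaptor MyD88 to NF-κB and MAP kinases, which switch on cytokine and chemokine genes, and through TRIF to IRF3 and interferon β, whose receptor then switches on interferon-stimulated genes. cGAS is a cytosolic DNA sensor that makes cGAMP for STING and also feeds IRF3, so a cGAS-/- macrophage keeps the TLR4 route to interferon while lacking the DNA route.

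Cgas itself was close to 0 in all 6 samples, at 0.0841, 0.11 and 0.291 TPM in UT and 0.0703, 0.0919 and 0.0975 TPM with LPS, against 2.67, 2.89 and 2.68 TPM in the WT UT samples. The genotype on the labels was thus borne out by the targeted gene. The cell type was checked with markers. All 13 macrophage markers in the table were tested, and 5 rose and 8 fell with LPS, where 16.4 and 40.3% of all tested genes did. Their median log2 fold change was −0.88. Among them was Lyz2, the macrophage lysozyme, at 19282 to 21141 TPM in UT and 32927 to 33426 TPM with LPS. Of its transcript, 42.4% is shared with Lyz1. Markers of most other cells were low. None of 16 T and NK cell markers and none of 5 mast cell markers reached the filter, and the 12 B cell markers summed to 20.2 to 28.8 TPM in UT and 3.18 to 9.09 TPM with LPS. Of 14 neutrophil markers 7 were tested, and their sum of 87.2 to 168 TPM in UT and 446 to 502 TPM with LPS moved mainly with Lcn2 (Camp, Mmp8 and Csf3r also rose). S100a9 fell from 30.6, 45.2 and 72.3 TPM to 26.8, 17.6 and 19.5 TPM, but only as deposited, and the granule genes Mpo, Elane and Ltf stayed under the filter. The 12 erythroid markers summed to 5.05 to 17.9 TPM in UT and 3.71 to 15.8 TPM with LPS, and the 15 stromal and endothelial ones to 4.05 to 6.23 and 5.02 to 6.31 TPM, with Dcn and Pecam1 higher. None of the erythroid markers passed the test. The 12 dendritic cell markers summed to 80.8 to 86.4 TPM in UT and 745 to 795 TPM with LPS, nearly all of it Bst2 (75.1 to 80.7 and 742 to 792 TPM), which interferon also induces in other cells. The other tested dendritic cell marker, Itgax, fell by 1.46 on the log2 scale, from 6.02, 3.7 and 4.09 TPM to 1.5, 0.852 and 0.761 TPM. The part of other cells in the results below was not tested. The protocol text of the labels names neutrophils as the source of the RNA, whereas title, source and cell type name macrophages. In bulk RNA, fewer cells of a type and less RNA per cell cannot be told apart.

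The table in hand held symbols of a part of the genome, so several classical LPS genes such as Tnf, Cd14, Acod1 and Ifit1 were not analysed here. Totals and shares of totals refer to the symbols in hand. The values per sample summed to 473048 to 477035 in UT and 501753 to 503156 with LPS, and 1 ferritin heavy chain pseudogene, Fth-ps3, took 7.88 to 8.42% of the UT totals and 17.2 to 17.7% of the LPS totals. The read depth behind the values is unknown, so no counting interval is given. The median log2 fold change over all tested genes was −0.23 as deposited and −0.02 after scaling with TMM factors. Every gene that rose as deposited also passed with TMM, and beside each count of falls the number that also passed with TMM is given where it differs.

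The LPS samples separated fully from the UT samples. On log2(TPM + 1) values the mean distance between samples of different groups was 96.3 against 39.9 within groups, a ratio of 2.41 (exact one-sided permutation test, p = 0.1, the smallest that 3 against 3 samples allow). Pearson correlations across genes were 0.968 to 0.978 within groups and 0.848 to 0.861 between them, where genes are not independent replicates. With the thresholds of the study, a Benjamini-Hochberg adjusted p under 0.05 in limma and a log2 fold change beyond 2, LPS raised 236 genes (2.71% of those tested) and lowered 194 (2.23%). With TMM factors, all 236 and 146 of the 194 were still called. Adjusted p alone passed 1430 genes upward (16.4%) and 3510 downward (40.3%), of which 1430 and 2150 also passed with TMM. With TMM factors 2144 genes passed upward and 2150 downward, 49.9% of them upward against 28.9% as deposited. Below, rose and fell mean an adjusted p under 0.05 as deposited. Each count of list members that rose or fell has to be read against the 16.4 and 40.3% of all tested genes. In 5626 genes (64.6%) the 3 LPS values did not overlap the 3 UT values, and a count of genes without overlap has to be read against that share. The calls spanned log2 fold changes from −6.19 to 9.04, with 57 genes above 4 and 12 below −4. Of the tested genes, 211 were at 1 TPM or more in every LPS sample and under 1 TPM in every UT sample, and 459 genes showed the reverse, so that their passing of the filter already required a difference. Of the genes described below, the former held Il6, Il12a, Csf3, Ifnb1, Cxcl10, Socs3, U90926, Nos2, Slc7a2, Ptges, Ptgs2, Mmp9, Serpinb2, Cd69, Pfkfb3, Slc2a6, Adora2a, Cp and Pilrb1, and also the markers Camp, Dcn and Pecam1. The latter held Hpgd, Nptx1, Sox4, Hmga2, Pparg, Ptgs1, Ltc4s, Ccr2, C5ar2, Enpp1, Nlrp1b, Egr2, Bcl2, Ldhb, Pfkfb2, Dhcr7, Slc40a1, Bmp2 and Tgfb3. The values and p-values of these genes are descriptions, and the counts of list members that rose or fell include them. At the edge of the filter, the third highest values of Cercam, Gm12359 and Ccnd2 were 1.00027, 1.00042 and 1.00107 TPM, and those of Gm17194, Polr1e and Gm38195, just outside, were 0.999325, 0.999031 and 0.99766 TPM.

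The largest rise was in Saa3, an acute-phase apolipoprotein made by activated macrophages (chromosome 7, 46361422 to 46365576 in GRCm39). It stood at 41, 54.3 and 113 TPM in the UT samples and at 34006, 33309 and 34035 TPM in the LPS samples, a log2 fold change of 9.04 ± 0.35 (SE, n = 3 against 3, limma adjusted p = 4.0e-06). The LPS samples nearly coincided, while UT replicate 3 was the highest of the UT samples. Next came Ccl5, the chemokine RANTES that draws T cells and monocytes (chromosome 11, 83416602 to 83425942), at 13.5, 18 and 33.5 TPM in UT and 6426, 6546 and 6265 TPM with LPS (8.24 ± 0.30, adjusted p = 3.3e-06). Il1b, the precursor of interleukin-1β, was at 2.45, 4.68 and 8.24 TPM in UT and 915, 771 and 856 TPM with LPS (7.22 ± 0.34), and its neighbour Il1a was at 0.505, 1.18 and 0.903 TPM and then 279, 205 and 234 TPM (7.02 ± 0.17). Both interleukin-1 genes, on chromosome 2, were therefore far higher in every LPS sample. Marco, a scavenger receptor that binds bacteria (chromosome 1, 120402267 to 120432753), went from 0.563, 1.33 and 1.14 TPM to 265, 265 and 270 TPM (7.08 ± 0.15). The rest of the 12 protein-coding genes with the largest rises had log2 fold changes between 5.98 and 6.49. They were U90926, the inhibitory sialic acid receptor Siglece, the siderophore-binding lipocalin Lcn2, Slfn1, the cytokine signalling inhibitor Socs3, the neutrophil chemokine Cxcl3 and the anti-apoptotic Bcl2a1a. Lcn2 was the least even of them in UT, at 0.904, 3.89 and 10.3 TPM, with 377, 348 and 366 TPM under LPS. Bcl2a1a shares its whole transcript with Bcl2a1b at up to 98.2% identity, and Siglece overlaps Ceacam18, so their values may include reads of these neighbours. Among genes described below, other transcripts were shared with another gene or pseudogene over 65.5% (Ldhb and Oaz1), 61.0% (Ccnd1), 59.8% (Odc1), 52.7% (Slc16a3), 51.5% (Me1) and 51.4% (Pcna) of their length.

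The largest falls were as even between samples. Pcp4l1, a small relative of the calmodulin-binding protein PCP4, fell from 207, 204 and 195 TPM to 1.55, 2 and 1.8 TPM (log2 fold change −6.19 ± 0.07, limma adjusted p = 2.3e-07). Atp6v0d2, a subunit of the vacuolar proton pump typical of osteoclasts and macrophages, fell from 73.5, 77.7 and 85 TPM to 0.878, 0.891 and 1.03 TPM (−5.36 ± 0.08). Cd5l, a secreted scavenger protein that keeps macrophages alive, fell from 594, 598 and 541 TPM to 14.7, 15.5 and 13.4 TPM (−5.22 ± 0.07). In each of these 3 genes every LPS value lay far below every UT value. Nptx1, a pentraxin, fell from 28.4, 26.3 and 27.8 TPM to 0, 0.089 and 0.0745 TPM. Hpgd, which inactivates prostaglandins, fell from 22.5, 23.7 and 21.9 TPM to 0.0577, 0 and 0.239 TPM. Cxcr4, the receptor for CXCL12 that holds cells in the bone marrow, fell from 127, 121 and 128 TPM to 5.2, 7.22 and 6.85 TPM (−4.10 ± 0.11). The 12 protein-coding genes with the largest falls were completed by Crip1, the elastase gene Mmp12, the transcription factor Sox4, the G-protein regulator Rgs2, the β-glucan receptor Clec7a and the chromatin protein gene Hmga2, with log2 fold changes from −4.04 to −3.91.

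**Figure D1:**
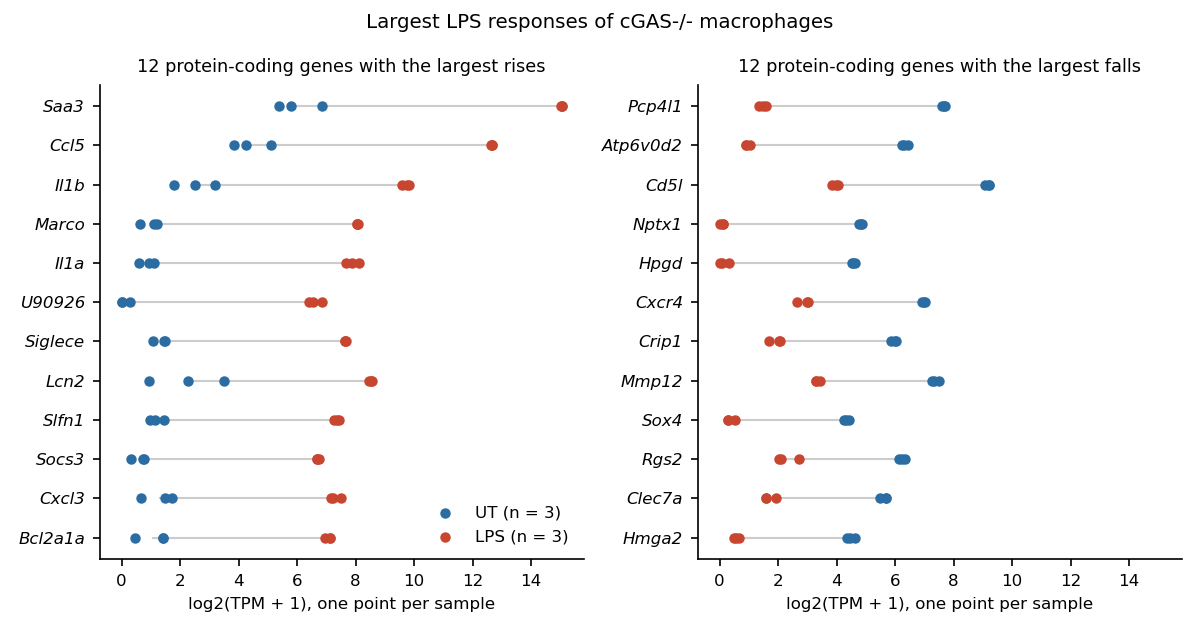
Levels of the 12 protein-coding genes that rose most and the 12 that fell most, each point 1 sample on the log2(TPM + 1) scale, for the 3 UT and the 3 LPS samples of cGAS-/- macrophages. The groups do not overlap in any of the 24 genes, and the UT samples of Saa3, Il1b and Lcn2 are spread more widely than the LPS samples.

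The DNA in front of the genes was read to see which promoters carry the letters that NF-κB and interferon-activated factors are known to bind. Windows of 250 bases before the annotated start in GRCm39 were searched on both strands for 3 motifs. The κB-like motif was GGG and TTCC with any 3 bases between, the interferon response element (ISRE)-like motif was GAAA and GAAA with any 2 bases between, and the AP-1-like motif was TGANTCA. Matches could overlap. Among the 6813 protein-coding genes tested, 5.25% of the windows held the κB-like, 3.45% the ISRE-like and 4.65% the AP-1-like motif. Among the 182 protein-coding genes called higher the shares were 14.3, 15.9 and 13.7%, and among the 148 called lower they were 4.05, 2.70 and 10.8%. The AP-1-like letters were thus above the share of all tested genes in both directions, while the κB-like and ISRE-like letters were above it in front of the genes that rose and below it in front of those that fell. A match is a description of the letters and not a bound site. As examples of attractants, a receptor, a cytokine and an inhibitor that rose, chosen after the matches were seen, the stretches around the κB-like matches (in capitals, with 10 bases on either side, gene strand, 5′ to 3′) of Ccl5 (chr11:83421385-83421444, minus strand), Marco (chr1:120432764-120432793, minus), Lcn2 (chr2:32277992-32278021, minus), Cxcl3 (chr5:90933877-90933929, plus), Cxcl1 (chr5:91039005-91039053, plus), Nfkbia (chr12:55539442-55539471, minus) and Il6 (chr5:30218058-30218087, plus) are shown.
Ccl5: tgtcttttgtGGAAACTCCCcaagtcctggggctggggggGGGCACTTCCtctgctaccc
Marco: gggacatggaGGGTCTTTCCcaaacttctt
Lcn2: caaagccctgGGAATGTCCCtctggtcccc
Cxcl3: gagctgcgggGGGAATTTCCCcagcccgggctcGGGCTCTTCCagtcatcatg
Cxcl1: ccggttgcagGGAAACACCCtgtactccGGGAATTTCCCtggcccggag
Nfkbia: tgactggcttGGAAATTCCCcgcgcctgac
Il6: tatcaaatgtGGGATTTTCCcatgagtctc
Ccl5, Cxcl3 and Cxcl1 hold at least 2 matches each, and their stretches begin 99, 85 and 89 bases before the start. The Marco match lies within 40 bases of the start. Ccl5, Marco, Lcn2 and Cxcl3 are the 4 of the 12 largest rises with such a match.

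The lists of genes by role differed in how their members moved. Of 22 lists, the late LPS-response genes had the highest median log2 fold change (5.18 over 15 tested members, 5.33 with TMM) and the proliferation genes the lowest (−0.95 over 29, −0.81 with TMM), against −0.23 and −0.02 for all tested genes. All 15 tested late-response genes rose, and 12 of them were called. Of 22 tested immediate early genes, the transcription factors and phosphatases that are switched on within minutes of a stimulus, 7 rose and 11 fell, 8 of those with both scalings. Of all tested genes 16.4% rose and 40.3% fell, so the falls are near that share. None of the 22 was called, though Dusp2 reached 2.17 with TMM, where 9 members passed upward. The median of that list was −0.16 as deposited and 0.10 with TMM, near the median of all genes on either scale.

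**Figure D2:**
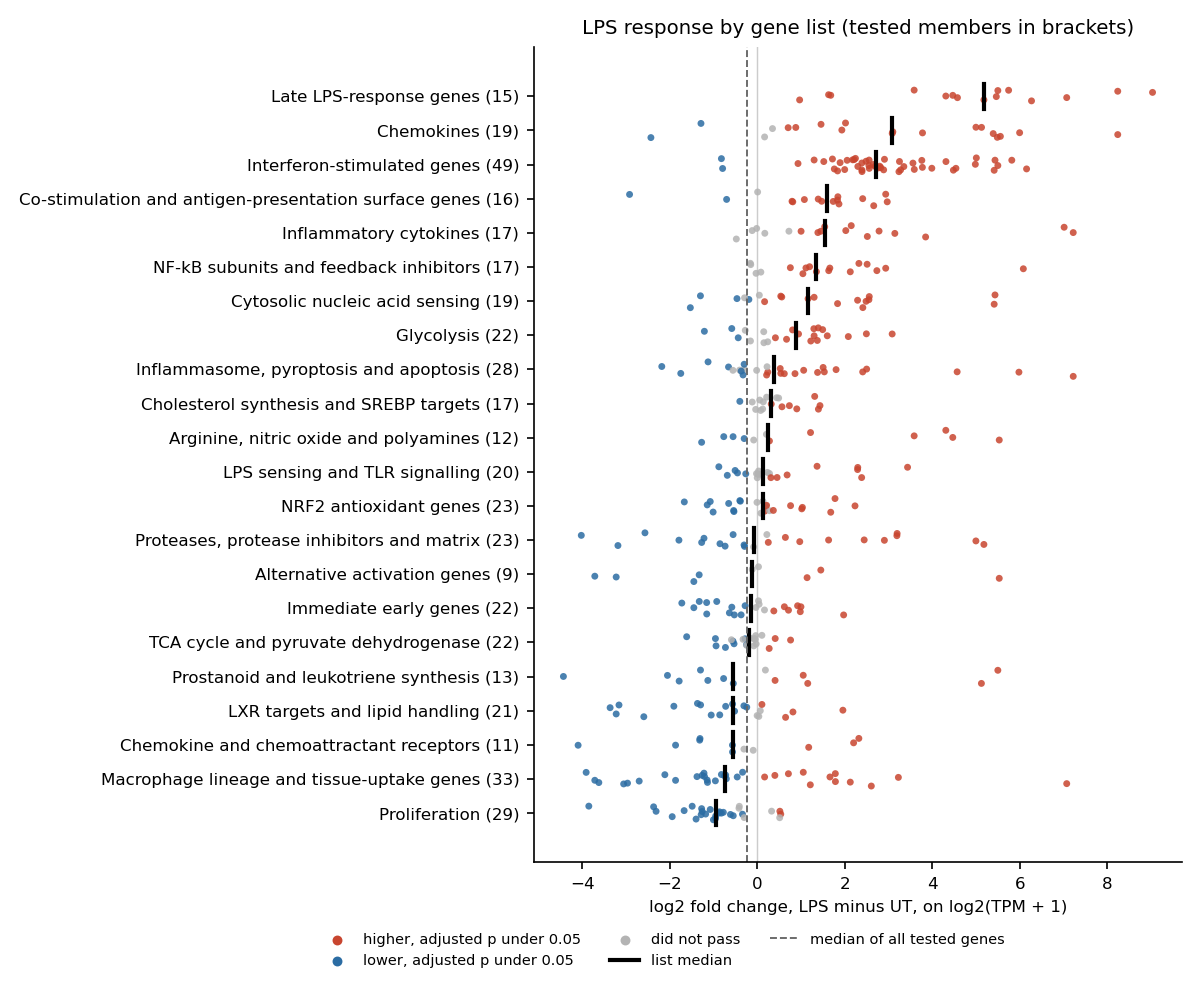
Log2 fold change of LPS against UT in cGAS-/- macrophages for every tested member of 22 gene lists, with 1 point per gene, red for higher and blue for lower at an adjusted p under 0.05, grey for neither, a black line at the median of each list and a dashed line at the median of all tested genes, −0.23. Late LPS-response genes, chemokines and interferon-stimulated genes lie to the right, proliferation and lineage genes to the left.

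Within the immediate early genes, Dusp2, a phosphatase that switches off MAP kinases, was at 2.4, 1.63 and 0.783 TPM in UT and at 10.6, 8.19 and 8.03 TPM with LPS (log2 fold change 1.97 ± 0.25, limma adjusted p = 0.0008). Plk3, Klf2 and Btg2 rose by smaller amounts, 1.00, 0.98 and 0.92. In the other direction, Atf3, a stress-induced repressor of cytokine genes, fell from 205, 190 and 212 TPM to 83, 89.1 and 97.6 TPM (−1.16 ± 0.07). The small GTPase gene Rhob fell by 1.73, Egr2 by 1.45 and the phosphatase gene Dusp4 by 1.33 on the log2 scale. Fos, one part of AP-1, was named after its values were seen and fell from 50.1, 43.7 and 56.2 TPM to 23, 18.8 and 23.7 TPM (−1.16 ± 0.12). None of these genes had overlapping groups, which also held for 64.6% of all tested genes.

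Of 20 tested genes of LPS sensing and TLR signalling, 8 rose, all with both scalings, and 5 fell, 3 of them with both scalings. The median of 0.14 (0.34 with TMM) lay 0.36 above that of all genes. The receptor of LPS, Tlr4, fell from 12.4, 11.3 and 12 TPM to 6.25, 5.76 and 6 TPM (−0.88 ± 0.06, limma adjusted p = 6.8e-05), whereas Tlr2, which senses bacterial lipoproteins, rose from 28.2, 27.4 and 25.5 TPM to 141, 133 and 136 TPM (2.30 ± 0.05). Tlr1, the partner of TLR2, rose by 2.38, while Tlr3, Tlr6 and Tlr9 did not pass as deposited (Tlr3 and Tlr6 rose with TMM). Ly96, the MD-2 partner of TLR4, was named after its values were seen and rose by 0.45, from 16.3, 15.3 and 15.4 TPM to 22, 22.5 and 20.9 TPM. Within the LPS receptor, Tlr4 thus fell while Ly96 rose. Irak3, an inactive kinase that brakes TLR signalling, had the largest rise of the list, from 4.36, 4.57 and 4.14 TPM to 57.1, 55.9 and 57.6 TPM (3.43 ± 0.05). The kinase gene Ikbke rose by 2.29 and the adaptor gene Myd88, named after its values were seen, by 1.36. Tollip, Traf6 and Ly86 fell by 0.69, 0.51 and 0.45, the last of them without passing under TMM.

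The genes for inhibitors that NF-κB itself switches on rose in large part. Of 17 tested NF-κB subunits and feedback inhibitors 13 rose, 6 were called and none fell, on either scale, with a median of 1.35 (1.57 with TMM). Nfkbia, the inhibitor IκBα, whose promoter holds a κB-like match in the stretch above, rose from 28.3, 32.1 and 33.7 TPM to 216, 212 and 213 TPM (log2 fold change 2.73 ± 0.07, limma adjusted p = 7.6e-07). Socs3, which blocks signalling by the IL-6 receptor, rose from 0.651, 0.257 and 0.716 TPM to 106, 101 and 101 TPM (6.08 ± 0.13). Both were nearly equal among the 3 LPS samples. Traf1 and N4bp1 rose by 2.93 and 2.51, and the RNase gene Zc3h12a and the ubiquitin-binding inhibitor Tnip1, both named after their values were seen, by 2.32 and 2.12. In this list, 5 of 17 promoters (29.4%) held the κB-like motif, against 5.25% of all tested protein-coding genes.

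Of 17 tested inflammatory cytokines 12 rose and none fell, on either scale, and 8 were called. Beside Il1b and Il1a, the pyrogen and acute-phase inducer Il6 was nearly absent in UT, at 0, 0.101 and 0.0682 TPM, and stood at 14.8, 12.5 and 15.5 TPM with LPS (log2 fold change 3.85 ± 0.10, limma adjusted p = 9.1e-07). Il1rn, the antagonist of the IL-1 receptor, rose as well, from 4.94, 6.17 and 8.82 TPM to 66.6, 64.3 and 64.4 TPM (3.14 ± 0.18). The agonists Il1a and Il1b and their antagonist were therefore all higher in each of the 3 LPS samples. Among cytokines named after their values were seen, Il12a, a subunit of IL-12, went from 0, 0 and 0.07 TPM to 4.32, 3.7 and 2.72 TPM, and Csf3, the granulocyte growth factor, from 0, 0.15 and 0 TPM to 8.04, 5.4 and 5.48 TPM. Ifnb1, interferon β, was listed at 0 in all 3 UT samples and at 3.42, 3.24 and 2.58 TPM with LPS. For these genes with a UT level near 0 the log2 fold change depends on the pseudocount of 1. The immunosuppressive cytokine Il10 rose less and less evenly, from 1.14, 2.7 and 3.88 TPM to 8.17, 7.97 and 8.62 TPM (1.45 ± 0.29, adjusted p = 0.0061). Il15, Il18, Il36g, Osm and Tgfb1 did not pass. The Il12b subunit stayed under the filter, at 0.567, 0.515 and 0.213 TPM with LPS and listed at 0 in UT.

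Chemokines, which attract neutrophils, monocytes and T cells, mostly rose. The table held 31 chemokine genes, of which 19 were tested. Of these 15 rose and 2 fell, on both scales, with 11 and 1 called and a median of 3.08 (3.21 with TMM). Ccl2, the monocyte chemoattractant MCP-1, rose from 1.95, 2.7 and 1.61 TPM to 146, 140 and 142 TPM (5.56 ± 0.13, limma adjusted p = 5.7e-07). Cxcl1, a neutrophil attractant with several κB-like matches in the stretch above, rose from 0.793, 1.93 and 3.03 TPM to 133, 114 and 123 TPM (5.49 ± 0.28). The T cell attractant Cxcl10, named after its values were seen, rose from 0.271, 0.33 and 0.138 TPM to 45.7, 42.1 and 39.7 TPM (5.13 ± 0.09). Ccl2, Cxcl1 and Cxcl10 were thus each raised by more than 5 on the log2(TPM + 1) scale, above the list median of 3.08. The exceptions were Cxcl14, a chemokine of resting tissues, which fell from 29.9, 26.6 and 27.3 TPM to 3.87, 4.85 and 4.36 TPM (−2.44 ± 0.09), and Ccl6, which fell by 1.29. In front of 7 of the 19 genes (36.8%) the window held the κB-like motif.

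The receptors moved in both directions. Of 11 tested chemokine and chemoattractant receptors 3 rose and 6 fell, on both scales, where 16.4 and 40.3% of all tested genes did as deposited, and the median was −0.57 (−0.30 with TMM). Cmklr1, the chemerin receptor, rose from 1.42, 1.13 and 1.09 TPM to 9.97, 10.4 and 9.82 TPM (2.32 ± 0.08, limma adjusted p = 3.1e-06), and Ccr1, a receptor for CCL3 and CCL5, from 2.3, 1.93 and 3.84 TPM to 17.2, 12.1 and 18.1 TPM (2.20 ± 0.23). Beside Cxcr4, the fractalkine receptor Cx3cr1 fell from 17.7, 17.2 and 18.4 TPM to 3.75, 4.05 and 4.61 TPM (−1.87 ± 0.08). Ccr2, the receptor of CCL2, fell from 2.8, 2.56 and 2.94 TPM to 0.445, 0.474 and 0.608 TPM (−1.32 ± 0.09), while Ccl2 rose. Ccr2 passed the filter through the UT samples alone, so nothing is read from this pair. Ccrl2 rose by 1.17 and C5ar2 fell by 1.31, while Ccr3 did not pass.

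**Figure D3:**
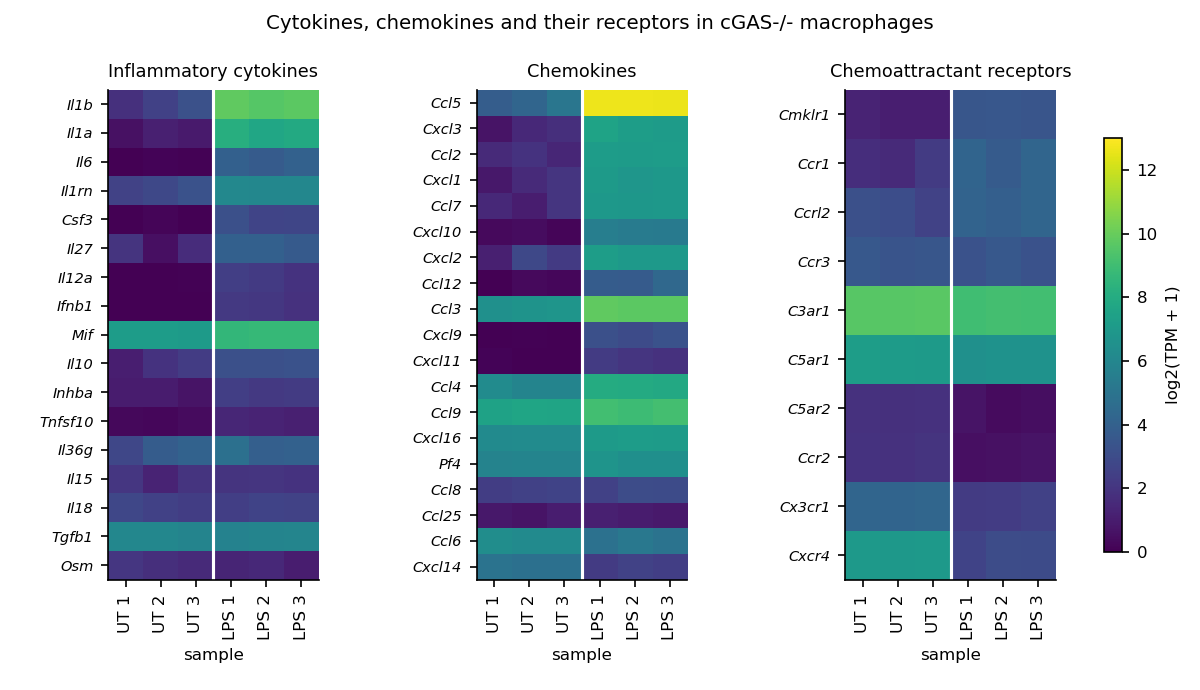
Heat map of tested cytokines, chemokines and chemoattractant receptors in the 3 UT and 3 LPS samples of cGAS-/- macrophages, with 1 row per gene ordered by log2 fold change and colour giving log2(TPM + 1) from 0 to 13. The upper rows of the cytokine and chemokine panels change from dark in UT to bright with LPS in all 3 samples, and the lower rows of the receptor panel change the other way.

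Interferon-stimulated genes rose almost throughout in these cells without cGAS. Of 49 tested members 47 rose, 39 were called, and Irf8 and Irf5 fell by 0.82 and 0.80, on both scales, with a median of 2.72 (2.95 with TMM). The summed level of the list was 730 to 802 TPM in the UT samples and 5369 to 5702 TPM in the LPS samples. Isg15, a ubiquitin-like protein attached to other proteins in antiviral defence, rose from 11.3, 16 and 12.2 TPM to 832, 777 and 766 TPM (5.82 ± 0.12, limma adjusted p = 4.8e-07), and 61.6% of its transcript is shared with the pseudogene Gm9706. Zbp1, a sensor of Z-form nucleic acid, rose from 1.77, 2.41 and 1.03 TPM to 119, 114 and 111 TPM (5.43 ± 0.18). Irf7, the factor that amplifies interferon transcription, rose from 0.837, 1.27 and 1.23 TPM to 91.4, 88.7 and 86.5 TPM (5.42 ± 0.09). The LPS samples of each gene lay close together and far above UT. Rsad2, the antiviral enzyme viperin, was named after its values were seen and rose from 1.94, 1.78 and 1.42 TPM to 52.4, 59.4 and 47.1 TPM (4.31 ± 0.11). The DNA sensor gene Ifi205 rose by 5.50 but shares 62.8% of its transcript with Ifi211.

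The ISRE-like motif stood before 16 of the 48 interferon-stimulated genes with a window (33.3%, against 3.45% of all tested protein-coding genes), and the κB-like motif before 4. The stretches of Isg15 (chr4:156285322-156285363, minus strand) and Zbp1 (chr2:173060742-173060825, minus) are shown because both hold the ISRE-like letters more than once, with matches that overlap, in Zbp1 on the strand opposite to the gene. Those of Ifnb1 (chr4:88441128-88441157, minus) and Cxcl10 (chr5:92496833-92496971, minus) are shown for the interferon itself and for a gene with both motifs. The Ifnb1 match is κB-like and not ISRE-like. Capitals mark the matches, with the gene strand printed 5′ to 3′.
Isg15: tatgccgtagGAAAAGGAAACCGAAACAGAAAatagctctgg
Zbp1: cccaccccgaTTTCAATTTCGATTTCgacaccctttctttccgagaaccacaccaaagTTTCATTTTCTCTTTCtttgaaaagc
Ifnb1: aactgaaagtGGGAAATTCCtctgaggcag
Cxcl10: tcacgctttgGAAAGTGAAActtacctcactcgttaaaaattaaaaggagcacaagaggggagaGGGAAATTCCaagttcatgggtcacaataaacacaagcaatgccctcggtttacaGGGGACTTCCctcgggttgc
In Cxcl10 the ISRE-like match lies farther from the start than the κB-like ones, and the Ifnb1 stretch begins 146 bases before the start.

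Apart from Cgas, the machinery for sensing nucleic acids in the cytosol rose in part. Of 19 tested members 13 rose, 7 were called and 4 fell, 2 of those with both scalings, with a median of 1.16 (1.38 with TMM). The RNA sensors Dhx58 and Ddx58, the second encoding RIG-I, rose from 2.94, 3.17 and 3.61 TPM to 24.5, 23.6 and 23.7 TPM (2.56 ± 0.08, limma adjusted p = 1.4e-06) and from 1.71, 2.09 and 2.1 TPM to 17.3, 16.3 and 15.5 TPM (2.55 ± 0.08). Enpp1, the hydrolase of extracellular cGAMP, fell from 2.29, 2.11 and 2.08 TPM to 0.136, 0.0733 and 0.0679 TPM (−1.53 ± 0.09). The lysosomal nuclease gene Dnase2a fell by 1.30. Mavs and Irf3 fell by 0.47 and 0.19 as deposited but did not pass with TMM, where Irf3 was at 0.035. Sting1 was not analysed here.

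Arginine enters macrophages through Slc7a2 and is oxidised by Nos2 to nitric oxide, while Ass1 helps to rebuild it from citrulline. These genes rose together. Nos2 was at 0.0125, 0.0675 and 0.0757 TPM in UT and 12.8, 10.7 and 11.4 TPM with LPS (log2 fold change 3.59 ± 0.09, limma adjusted p = 7.9e-07). Slc7a2 was at 0.594, 0.686 and 0.785 TPM and then 35.8, 30.4 and 31.4 TPM (4.31 ± 0.09). Transporter and synthase were thus under 1 TPM in every UT sample and above 10 TPM in every LPS sample. Ass1 rose by 4.47, with 70.4% of its transcript shared with the pseudogene Gm5424. The polyamine enzyme gene Odc1, which acts on ornithine, fell from 6.96, 7.81 and 8.18 TPM to 2.72, 2.3 and 2.7 TPM (−1.28 ± 0.09), with Srm and Oaz1 lower by 0.77 and 0.56. Oaz2 fell by 0.30 as deposited but did not pass with TMM. Of the 12 tested members of this list 6 rose and 4 fell, 3 of those with both scalings, and the median was 0.24 (0.44 with TMM).

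Among the prostanoid genes, the inducible cyclooxygenase and the prostaglandin E synthase had the largest rises and the breakdown enzyme gene Hpgd the largest fall. Ptgs2, the inducible cyclooxygenase, rose from 0.351, 0.876 and 0.594 TPM to 57.6, 51.8 and 54.3 TPM (5.12 ± 0.13, limma adjusted p = 7.2e-07), and Ptges, the prostaglandin E synthase, from 0.217, 0.18 and 0.306 TPM to 57.8, 57.9 and 49.2 TPM (5.50 ± 0.09). The phospholipase gene Pla2g4a and the prostacyclin receptor gene Ptgir rose by 1.15 and 1.05. Ptgs1, the constitutive cyclooxygenase, fell from 3.7, 3.53 and 4.62 TPM to 0.569, 0.386 and 0.335 TPM (−1.79 ± 0.12). Hpgds, the prostaglandin D synthase, fell from 69.7, 74.3 and 68.9 TPM to 15.7, 17.3 and 16 TPM (−2.06 ± 0.06), and the leukotriene C4 synthase gene Ltc4s fell by 1.30. Of 13 tested members 5 rose and 7 fell, on both scales, and only Ptges2 did not pass. Of all tested genes 16.4% rose and 40.3% fell.

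**Figure D4:**
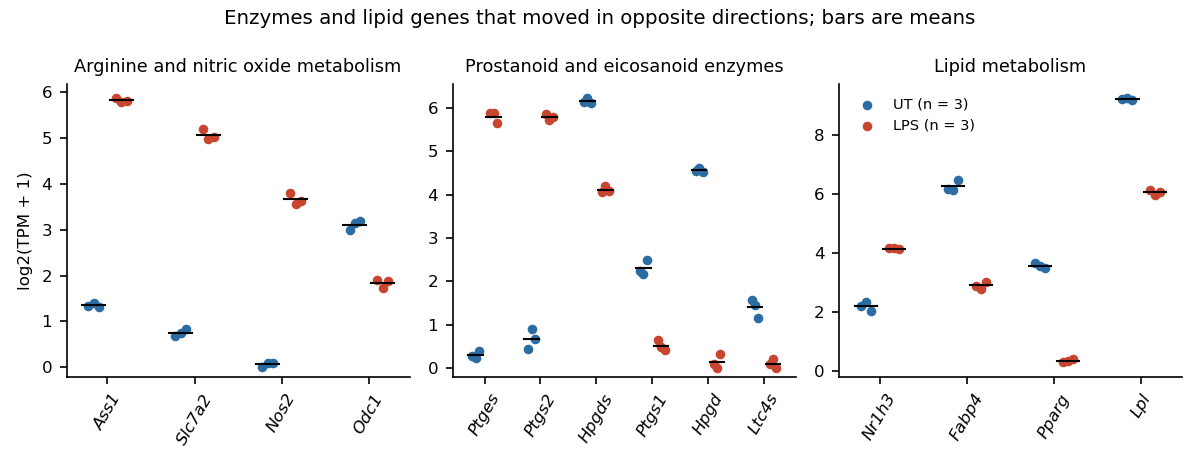
Levels on the log2(TPM + 1) scale of genes of arginine and nitric oxide metabolism, of prostanoid synthesis and of lipid handling in cGAS-/- macrophages, with 1 point per sample, blue for UT and red for LPS (n = 3 each), and bars at the means. Ass1, Slc7a2, Nos2, Ptges, Ptgs2 and Nr1h3 are higher in all 3 LPS samples, and Odc1, Hpgds, Ptgs1, Hpgd, Ltc4s, Fabp4, Pparg and Lpl are lower in all 3.

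Of 22 tested glycolysis genes 14 rose, on both scales, and 3 fell, 2 of them on both, with a median of 0.87 (1.14 with TMM). The lysosomal hexose transporter gene Slc2a6 rose from 0.824, 0.489 and 0.482 TPM to 12.9, 12.2 and 12.4 TPM (3.08 ± 0.10, limma adjusted p = 2.3e-06), and the lactate exporter gene Slc16a3 from 7.1, 7.44 and 7.69 TPM to 45.1, 45.7 and 48.2 TPM (2.49 ± 0.06). Pfkfb3, which makes the activator of phosphofructokinase, rose by 2.08 and the phosphofructokinase gene Pfkl by 1.60. Slc2a6 and Pfkfb3 passed the filter through the LPS samples alone, whereas Slc16a3 was above 1 TPM in both groups. Ldhb fell by 1.21 and Pfkfb2 by 0.59. Slc16a1 fell by 0.44 as deposited but did not pass with TMM. Of 22 tested genes of the citrate cycle and pyruvate dehydrogenase 3 rose and 8 fell, 6 of those with both scalings, none was called, and 11 did not pass, while with TMM 5 members rose. These counts lie near the shares of all tested genes that rose and fell, 16.4 and 40.3%, and are no result about the list. Mdh1 fell from 28.9, 27.1 and 30.8 TPM to 8.04, 8.71 and 9.55 TPM (−1.62 ± 0.08), Idh2 by 0.96, Suclg2 by 0.95 and Aco1 by 0.73, whereas Me1, Mdh2 and Sdhb rose by 0.76, 0.41 and 0.27.

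In lipid metabolism, 7 of 17 tested genes of cholesterol synthesis and uptake rose and 1, Dhcr7, fell by 0.40, but only as deposited. With TMM 12 of the 17 rose. Fdps, Mvd and Idi1, enzymes of the mevalonate pathway, rose by 1.43, 1.40 and 0.90, none of the list reached a log2 fold change of 2, and 81.3% of the Fdps transcript is shared with pseudogenes. Fdps was at 5.28, 5.16 and 6.36 TPM in UT and 16.5, 16.8 and 17 TPM with LPS, with no overlap. In the genes of lipid storage and export, by contrast, 4 of 21 rose and 14 fell, 11 of those with both scalings, with a median of −0.57 (−0.40 with TMM). Lpl, the lipoprotein lipase, fell from 591, 615 and 577 TPM to 68.5, 61.6 and 66.2 TPM (−3.17 ± 0.05, limma adjusted p = 3.2e-07). Pparg, the fatty acid-sensing nuclear receptor, fell from 11.5, 10.7 and 10.3 TPM to 0.212, 0.25 and 0.323 TPM (−3.23 ± 0.08), and its target Fabp4 from 70.1, 69.6 and 88.5 TPM to 6.36, 5.87 and 7.07 TPM (−3.37 ± 0.11). Receptor and target were lower in all 3 LPS samples. Mylip, a ubiquitin ligase gene that LXR switches on, fell by 2.60 on the log2 scale. Nr1h3, the oxysterol receptor LXRα, rose from 3.57, 4.04 and 3.09 TPM to 16.7, 16.9 and 16.3 TPM (1.96 ± 0.09), and the cholesterol exporter gene Abca1 and the droplet gene Hilpda rose by 0.81 and 0.65. Npc2 was higher by 0.10, at an adjusted p of 0.049, and did not pass when any single sample was left out.

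Of 23 tested antioxidant genes of NRF2 9 rose and 9 fell, 7 of those with both scalings, where 16.4 and 40.3% of all tested genes rose and fell, so the falls are near the share of all genes. The thioredoxin gene Txn1 rose from 325, 347 and 377 TPM to 693, 732 and 716 TPM (1.03 ± 0.06, limma adjusted p = 2.4e-05), the glutathione reductase gene Gsr by 1.78 and the cystine transporter gene Slc7a11 by 1.68. The hypoxia factor gene Hif1a, held in the same list, rose from 9.91, 10.9 and 11.1 TPM to 53.5, 51.5 and 55.6 TPM (2.23 ± 0.06). Catalase, Cat, fell from 281, 255 and 268 TPM to 84.5, 87 and 78.8 TPM (−1.67 ± 0.06), Gclc by 1.15 and Gstm1 by 1.08. Txn1 and Gsr, which keep thiols reduced, therefore rose while catalase and the glutathione-synthesising Gclc fell. The ferritin light chain gene Ftl1 fell by 1.01, with up to 95.3% of its transcript shared with pseudogenes.

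Within the list of macrophage lineage and uptake genes, Marco, Fcgr2b, Fcgr4 and Fcgr1 had the largest rises, and Clec7a, Mrc1 and Gas6 the largest falls. All 33 tested lineage and uptake genes passed, 12 upward and 21 downward, 20 of those with both scalings. Fcgr2b, the inhibitory IgG receptor, rose from 3.53, 3.89 and 4.21 TPM to 45.6, 43.3 and 44.7 TPM (3.22 ± 0.07, limma adjusted p = 4.9e-07), and the activating receptors Fcgr4 and Fcgr1 rose by 2.61 and 2.13, whereas Fcgr3, a further activating receptor named after its values were seen, fell by 1.21, with 33.5% of its transcript shared with Fcgr2b. Msr1 and Itgam, a scavenger receptor and the integrin CD11b, rose by 1.78 and 1.66, with 92.3% of the Itgam transcript shared with Gm49368. Mrc1, the mannose receptor CD206, fell from 23.5, 25.6 and 24.3 TPM to 0.86, 1.1 and 0.857 TPM (−3.72 ± 0.08). Gas6, the bridge to apoptotic cells, fell from 203, 206 and 190 TPM to 15.5, 16.5 and 13.8 TPM (−3.63 ± 0.07). The IgG receptors thus moved in both directions, while Mrc1 and Gas6 fell by more than 3 on the log2 scale. The lysosomal marker Cd68 fell from 1023, 1046 and 1009 TPM to 230, 249 and 230 TPM (−2.12 ± 0.04). The transcription factor gene Cebpa fell by 3.06 and Gpnmb, named after its values were seen, by 2.97, with the complement gene C1qc down by 1.38.

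Of 9 tested genes of alternative activation, the state set by IL-4, 3 rose, among them Il10 and Il4ra, and 4 fell (Mrc1, Pparg, Egr2 and Tgm2), on both scales. Of all tested genes 16.4% rose and 40.3% fell, so the falls are near that share and are no result about the list. Il4ra, the receptor of IL-4, was at 6.45, 5.96 and 6.28 TPM in UT and 15.3, 14.7 and 14.7 TPM with LPS (log2 fold change 1.14 ± 0.06, limma adjusted p = 1.3e-05), and Tgm2 fell by 1.33. Of 16 tested co-stimulation and antigen-presentation genes 13 rose and 2 fell, on both scales, with a median of 1.60 (1.82 with TMM). Icam1, an adhesion molecule for T cells and neutrophils, rose from 15.2, 13.8 and 14.5 TPM to 98.9, 97 and 95.6 TPM (2.66 ± 0.05), and Cd69 by 2.97. The list and its counts also held Birc3 and Traf1, which are not surface genes and rose by 2.41 and 2.93. Against this direction, Cd83, usually a marker of activated dendritic cells, fell from 13.7, 12.9 and 11.1 TPM to 1.2, 0.741 and 0.475 TPM (−2.92 ± 0.16), and Cd44 fell by 0.70.

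In the genes of cell death, members of both outcomes moved. Of 28 tested genes 16 rose and 7 fell, 4 of those with both scalings, where 16.4 and 40.3% of all tested genes did. The survival gene Bcl2a1d rose from 2.65, 7.38 and 3.05 TPM to 124, 111 and 117 TPM (4.57 ± 0.31, limma adjusted p = 4.8e-05), together with its near-identical copy Bcl2a1a, and the necroptosis effector Mlkl rose from 1.47, 1.36 and 2.27 TPM to 13.1, 16.3 and 13 TPM (2.50 ± 0.16). Bcl2l11, which encodes the pro-apoptotic BIM, fell from 7.95, 7.68 and 8.54 TPM to 1.78, 1.55 and 1.74 TPM (−1.75 ± 0.08), and the survival genes Bcl2 and Bcl2l1 fell by 1.13 and 0.66. Survival genes of the BCL2 family thus moved in both directions. The inflammasome sensor gene Nlrp1b fell from 6.71, 6.66 and 6.12 TPM to 0.716, 0.689 and 0.54 TPM (−2.19 ± 0.08). Among the proteases, their inhibitors and the matrix, 10 of 23 rose and 11 fell, 8 of those with both scalings. The falls are near the share of all tested genes. Mmp9, gelatinase B, rose from 0.465, 0.518 and 0.766 TPM to 51.8, 48.9 and 47.6 TPM (5.00 ± 0.09), while Mmp12 fell from 162, 152 and 178 TPM to 9.67, 8.79 and 8.85 TPM (−4.03 ± 0.07), so that these metalloproteinase genes moved in opposite directions. Serpinb2, an inhibitor of urokinase, rose by 5.18, the elastase inhibitor gene Slpi by 3.20 and Thbs1 by 3.19. Osteopontin, Spp1, fell from 365, 344 and 385 TPM to 39.5, 37.7 and 39.9 TPM (−3.19 ± 0.05), and Timp2 and Ctsk by 2.57 and 1.79.

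Proliferation genes fell. Of 29 tested members 22 fell, 20 of them with both scalings, 3 were called lower and 2 rose (4 with TMM). Of all tested genes 40.3% fell and 16.4% rose. Ccnd1, cyclin D1, fell from 33.8, 37.7 and 35.7 TPM to 1.3, 1.81 and 1.52 TPM (−3.85 ± 0.09, limma adjusted p = 6.7e-07). Pcna, the sliding clamp of DNA replication, fell from 128, 132 and 139 TPM to 26.6, 25.4 and 25.7 TPM (−2.32 ± 0.05), and the helicase subunit Mcm6 from 19.8, 18.1 and 19.5 TPM to 4.29, 4.07 and 4.29 TPM (−1.95 ± 0.06). These genes of S phase entry and of replication were lower in all 3 LPS samples. Stmn1 fell by 2.37. Cks2 and Tyms rose by 0.51 and 0.53, the first not passing without UT replicate 3 (0.46) and with 65.2% of the Cks2 transcript shared with another gene. Among the markers of other cells, Ighm fell from 20, 17.5 and 15.6 TPM to 1.26, 0.388 and 1.1 TPM, and the part of such cells in these falls was not tested.

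The size of the response was set beside that of WT with an interaction term over all 12 samples, which passed for 63 of the 8703 genes (0.724%). These genes were kept by the filter on the 6 cGAS-/- samples, so a gene present in WT alone could not enter. Il6, Mmp9 and Slc7a2 passed that filter through the cGAS-/- LPS samples alone and Sox4 through the cGAS-/- UT samples alone. Their differences are therefore descriptions. The count of 63 rested on single libraries, since it was 26 when WT UT replicate 1 was left out, 508 when WT LPS replicate 3 was, and 1547 when WT LPS replicate 2 was. WT LPS replicate 3 stood apart from all other libraries, with 31.7% of its total in Fth-ps3 and 18.5% in protein-coding genes against 39.7 to 54.4% elsewhere, and each difference is therefore also given without it. Marco was at 9.75, 11.6 and 15.7 TPM in the WT LPS samples against 265 to 270 TPM in cGAS-/-, from UT levels under 2 TPM in both, and the log2 responses differed by 4.01 ± 0.34 (limma adjusted p = 0.00027, 4.19 without that library). Siglece was at 5.6, 5.02 and 4.23 TPM in WT UT and 70, 107 and 35.5 TPM in WT LPS, and its response was larger in cGAS-/- by 2.85 ± 0.49 (adjusted p = 0.024, 2.42 without). Slc7a2, the arginine transporter, reached 3.87, 7.55 and 1.88 TPM in WT LPS and 30.4 to 35.8 TPM in cGAS-/-, a difference of 2.37 ± 0.45 (adjusted p = 0.043, 1.98 without). In each of these 3 genes every cGAS-/- LPS sample was above every WT LPS sample. Il1a rose in both genotypes, to 58.9, 84.9 and 41.4 TPM in WT, and the responses differed by 2.05 ± 0.41 (adjusted p = 0.048, 1.79 without). Mmp9 differed by 5.34 ± 0.51 (4.82 without) and Il6 by 3.14 ± 0.23 (3.04 without), with WT LPS values of 4.18, 4.06 and 0.744 TPM and of 1.07, 0.772 and 0.559 TPM. For Mmp9 the WT UT samples already held 2.84, 4.09 and 3.77 TPM, above all cGAS-/- UT samples, so the genotypes were apart before LPS. Sox4 fell in both genotypes, from 6.42, 5.69 and 5.39 TPM to 0.337, 0.304 and 0.12 TPM in WT, and fell by more in cGAS-/- from a higher UT level (−1.53 ± 0.25, adjusted p = 0.017, −1.61 without). The differences for Marco, Il6 and Mmp9 passed under all 15 alternatives. Those for Siglece and Sox4 passed under 6 and those for Il1a and Slc7a2 under 4, and all of them passed without WT LPS replicate 3. None of these alternatives changed the filter, so they do not test the selection of genes by the cGAS-/- samples.

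**Figure D5:**
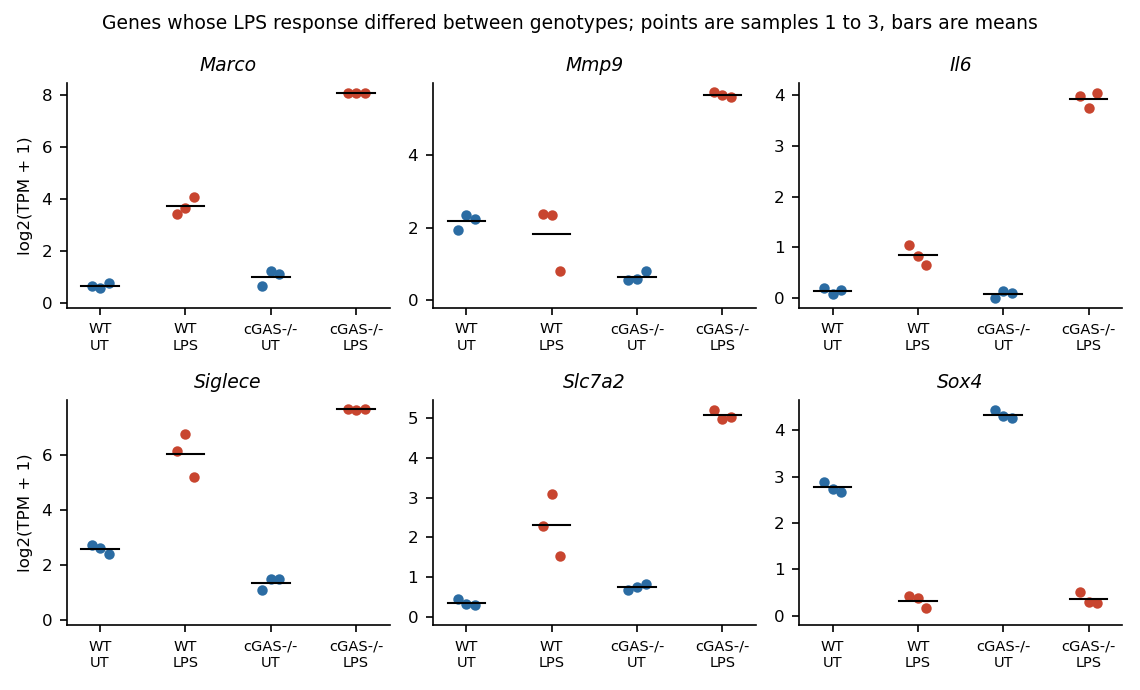
Levels on the log2(TPM + 1) scale of Marco, Mmp9, Il6, Siglece, Slc7a2 and Sox4 in the 4 groups of BMDMs, with 1 point per sample (blue UT, red LPS, n = 3 each) and bars at the group means. The cGAS-/- LPS samples lie above the WT LPS samples in every gene but Sox4, and the WT LPS samples are spread more widely than the cGAS-/- LPS samples in Mmp9, Siglece and Slc7a2.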

How the data were processed

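Total RNA of BMDMs was made into stranded mRNA libraries, and the deposited table gave 1 value per gene symbol and sample. Per the labels, the authors processed the reads with fastp, STAR and kallisto on GRCm39, with no versions given in the sources used here. The values fit TPM that the authors averaged over the transcripts of a symbol, which was inferred from the values, so the depth is unknown and, beside sums and shares of the deposited values, levels were not compared between genes. Of the symbols, 91.9% matched GENCODE vM39. Values were taken as log2(TPM + 1), genes at 1 or more in 3 of 6 samples were kept, and group means were compared with limma 3.58.1 (R 4.3.3), with a variance trend and Benjamini-Hochberg adjustment over 8703 genes. TMM factors were computed from the values with the trimmed-mean formula and used as a scaling only. The fit over all 12 samples gave the interaction, for the same 8703 genes. Shared transcript sequence was searched with blastn 2.17.0. The steps were tested on simulated data. The 12 largest rises and falls among protein-coding genes and up to 4 members each way per list were named, other genes are marked as named after their values were seen, and genes given only as not passing were also named after. The members and the lists were chosen with earlier results of these data known. Alternatives were the pseudocount, filters, scaling, variance model, a replicate block and leaving out each sample. Some tested genes are not reported here, and symbols beyond the part of the table in hand were not analysed here.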

Additional observations from a re-analysis of the deposited data

Results flagged for a closer look

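For the genes below the log2 response to LPS differed between cGAS-/- and WT macrophages by the interaction term over all 12 samples at an adjusted p under 0.05. Groups of 3 samples are too small for the outlier test, which was not run. No explanation was weighed, and WT LPS replicate 3, which stood apart, was in the fit.

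Among the genes named by rule, the response was larger in cGAS-/- by 4.01 for Marco, 2.05 for Il1a, 2.85 for Siglece, 3.14 for Il6, 1.80 for Cmklr1, 2.37 for Slc7a2 and 5.34 for Mmp9, each on the log2 scale. Il12a, a subunit of IL-12 that was named after its values were seen, differed by 1.96, with WT values of 0.293, 0.244 and 0 TPM under LPS. Cmklr1 was at 6.71, 7.99 and 6.99 TPM in WT UT and 9.1, 15.7 and 8.63 TPM in WT LPS, against 1.42, 1.13 and 1.09 TPM in cGAS-/- UT, so the WT level was higher before LPS. Mvd, of the mevalonate pathway, differed by 1.97, since it rose in cGAS-/- and stood at 5.74, 6.04 and 8.02 TPM in WT UT and 3.98, 5.92 and 2.77 TPM in WT LPS. Cks2 differed by 3.001 and Stmn1, which fell in both, by 1.74. In WT, Cks2 fell from 15.4, 31 and 20.4 TPM to 4.29, 4.76 and 1.09 TPM. Stmn1 was at 11.7, 10.3 and 11.1 TPM in cGAS-/- UT and 35.9, 40 and 41.4 TPM in WT UT. With LPS it was at 1.47, 1.37 and 1.13 TPM in cGAS-/- and 1.71, 1.65 and 0.734 TPM in WT. Both genes were thus higher in WT before LPS. Sox4 differed by −1.53. Leaving out single samples, the differences of Marco, Il6, Il12a and Mmp9 passed each time, while those of Il1a, Slc7a2 and Mvd passed in 2 of 12, and those of Siglece, Sox4, Cmklr1, Cks2 and Stmn1 in 3 of 12.

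Other genes were named after their values were seen. Id3, an inhibitor of helix-loop-helix transcription factors, was at 44.8, 47.1 and 46.4 TPM in cGAS-/- UT and at 2.64, 2.21 and 2.03 TPM with LPS, against 1.29, 0.885 and 1.74 TPM in WT UT and 0.598, 0.93 and 2.32 TPM in WT LPS (−3.77, adjusted p = 0.00095). Its relative Id1 differed by −3.36, Tgfb3 by −2.09 and Smad6 by −1.89. For Id1 the cGAS-/- UT samples held 14.2, 12 and 11.7 TPM and the WT UT samples 0.165, 0.338 and 0.432 TPM, so the genotypes were apart before LPS. The same held for Tgfb3, at 8.05, 7.81 and 6.43 TPM in cGAS-/- UT and 0.763, 1.46 and 1.36 TPM in WT UT. Smad6 was at 2.3, 2.71 and 2.55 TPM in cGAS-/- UT and 0.0585, 0.149 and 0.0255 TPM in WT UT. The surface receptor genes Cd300e, Pilra and Pilrb1 differed by 4.36, 2.83 and 2.14, and Smpdl3b, a lipid-modifying enzyme anchored in the membrane, by 2.85. Cd300e was at 31.9, 30.1 and 30.9 TPM in cGAS-/- LPS and at 3.69, 4.04 and 0.485 TPM in WT LPS. The differences of Id1, Id3, Tgfb3, Pilrb1, Cd300e and Smad6 passed in 12 of 12 fits without a sample, that of Pilra in 11 and that of Smpdl3b in 4.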

How the results depend on the processing

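The 3 samples per group, their unclear independence, the unknown depth, the dose and time that differ between sources and the choice of scale limit these results. The counts of called genes, 236 higher and 194 lower, became 368 and 421 with a pseudocount of 0.1 and 122 and 60 with a pseudocount of 5. They ranged from 230 to 242 and from 190 to 199 when single samples were left out. When limma tested against a minimum log2 change of 1 (treat), 398 and 422 genes passed. The cut at a log2 fold change of 2 was not applied there, so these are not the same calls. The counts by adjusted p alone, 1430 and 3510, became 552 and 1011 with the spread of all 12 samples, and the lower count became 2011 with a stricter filter and 2150 with TMM factors; without single samples they ranged from 1250 to 1393 and from 3020 to 3179. TMM factors moved the share of calls that were higher from 54.9 to 66.1%. The 63 genes that differed between genotypes became 113 with TMM factors, 322 with sample weights, 37 with a replicate block and 26 to 1547 without single samples: leaving out WT UT replicate 1 gave 26, WT LPS replicate 3 gave 508 and WT LPS replicate 2 gave 1547. Same-numbered samples did not deviate together (correlations of 0.1065, 0.00142 and 0.0513), so the numbers were not taken to pair them, and the replicate block gave 238 and 195 called genes. Of 229 fold changes of named genes, 40 lost significance with the spread of all 12 samples, 68 with treat, and 7 with TMM factors, where Irf3 also turned sign, to 0.035, without passing. Leaving out single samples cost 3 to 5 calls at a time: Irf3 and Npc2 without any one of the samples, Dhcr7 and Ireb2 without each LPS replicate, Slc16a1 without UT replicate 1 or 2, Cks2 without UT replicate 3, and S100a9 without UT replicate 2, LPS replicate 2 or LPS replicate 3. Of 49 counts of list members that rose or fell, 24 moved by over 1.5 times with the spread of all 12 samples, 8 with TMM factors, 6 with a stricter filter, 4 with quantile normalization and 1 or 2 without single samples. The ratio of distances was 1.92 with a pseudocount of 0.1, 3.01 with 5 and 2.35 to 2.51 without single samples. The cause of these shifts was not tested.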

Other observations

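Iron genes were grouped after their values were seen, so nothing is read from their counts. Of 16 tested, 8 rose and 7 fell, 6 of those with both scalings, where 16.4 and 40.3% of all tested genes rose and fell. Hp, haptoglobin, which binds free haemoglobin, rose from 0.497, 0.449 and 1.5 TPM to 111, 99.8 and 95.7 TPM (log2 fold change 5.87 ± 0.22, limma adjusted p = 3.5e-06), and Cp, the ferroxidase ceruloplasmin, by 3.20. The haem oxygenase gene Hmox1 rose by 1.02 and the phagosomal metal transporter gene Slc11a1 by 0.94. Slc40a1, the iron exporter ferroportin, fell from 9.47, 10.2 and 9.42 TPM to 0.482, 0.396 and 0.398 TPM (−2.91 ± 0.08), the transferrin gene Trf by 2.70 and the ferrireductase gene Steap3 by 2.27. The ferritin heavy chain pseudogene Fth-ps3 rose by 1.18 and Fth-ps2 by 1.09, while Ftl1 fell by 1.01.

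Genes of TGF-β and BMP signalling, were also grouped after their values were seen, and nothing is read from their counts either. Of 13 tested, 10 fell with both scalings and none rose, where 40.3% of all tested genes fell as deposited. Tgfbr1, the type I receptor, fell from 27.4, 27.9 and 28.3 TPM to 3.46, 3.62 and 3.83 TPM (−2.64 ± 0.06, limma adjusted p = 5.2e-07), Tgfbr2 by 1.52 and Bmp2 by 2.35. The target genes Id1, Id2 and Id3 fell by 3.12, 2.21 and 3.84. Tgfb1 stood at 63.2, 63.6 and 56.8 TPM and then at 53.6, 56.7 and 58.4 TPM and did not pass.

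Other changes were single genes. Aoah, the lipase that inactivates LPS itself, rose from 2.63, 2.49 and 2.52 TPM to 96.6, 100.1 and 95.1 TPM (4.79 ± 0.05, limma adjusted p = 1.6e-07). The sialic acid receptor gene Siglec1 rose by 3.46, the antiviral membrane protein gene Ifitm3 by 3.01, and the adenosine receptor genes Adora2a and Adora2b by 2.54 and 2.56. The integrin gene Itga6 fell by 3.41, the tetraspanin gene Cd9 by 3.33 and the semaphorin co-receptor gene Nrp1 by 2.67.

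Nuclear pseudogenes that copy the mitochondrial genome held a large share of the values. In 13 tested pseudogenes at least 80% of the transcript matched mitochondrial DNA at 90% identity or more, so reads of mitochondrial transcripts may be counted there, which was not tested. Their sum was 22.6 to 23.8% of the total in UT and 10.0 to 10.3% with LPS. All 13 fell with both scalings, by a median log2 fold change of −1.28 as deposited and −1.04 with TMM factors. In WT the share was 16.7 to 17.0% in UT and 5.94 to 7.03% with LPS.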
